A study of Mus musculus with 13 samples.

Results

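Sox proteins are transcription factors that bind DNA through a high-mobility-group box related to that of Sry. The family members described here are 10 genes named beforehand by symbol: Sox4, Sox11 and Sox12 of the SoxC subgroup, Sox5 and Sox6 of SoxD, Sox8 and Sox9 of SoxE, and Sox7, Sox17 and Sox18 of SoxF. All 10 were among the 24411 genes of the bulk table and among the 14601 and 14164 genes of the single-cell tables. They had been grouped as Sox genes outside glia. The single cells went against that name for Sox4 and Sox6, whose highest level over the named classes lay in Schwann cell-like cells in both libraries, so the genes are called the 10 Sox genes below. For Sox6 this rests on 14 UMIs, and for Sox8 and Sox12 too few UMIs were found in those cells to tell.

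All samples came from skeletal muscle of wild-type C57BL/6 mice aged 2 months. There were 11 bulk libraries, made from polyA RNA by Smart-seq2, which copies full-length cDNA from small amounts of RNA. Freshly sorted muscle stem cells (MuSC; CD31-, CD45-, Sca1-, Vcam1+, Itga7+) gave 2 of them. Smooth muscle and mesenchymal-like cells (SMMC), sorted in the same way but as Vcam1-, gave 3 fresh libraries, 3 libraries after 3 days of culture, in which the cells proliferated, and 3 libraries from cultures that had been allowed to differentiate. A further 2 libraries held droplet-based 3′ single-cell RNA-seq of mononuclear cells from uninjured hindlimb muscle. The sorted populations are defined by antibodies and not by lineage tracing, and no cultured MuSC were analysed here. Whether the libraries of a group stem from different animals is not stated, and the spread behind each p-value may therefore be technical only.

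The bulk values are FPKM, fragments scaled by transcript length and by the number of mapped fragments; their depth is unknown. The single-cell libraries held 6144 and 6297 cells with 19353328 and 15507938 UMIs (unique molecular identifiers, which count molecules), and 53 cell barcodes occurred in both. The summed FPKM of 10 muscle stem cell markers ran from 3053 to 4568 in MuSC, from 402 to 639 in fresh SMMC and from 1555 to 2174 in the cultures. They include Vcam1, on which the sorts differ, and Des, also a smooth muscle marker here. By the test given below, 5 were called higher and 2 lower in proliferating than in fresh SMMC, against 33.1% and 35.4% of all genes. Differentiating against fresh SMMC gave 4 higher and 3 lower, against 34.7% and 33.3%. The sum of 10 tenocyte markers was 9116 to 18612 in fresh SMMC and at most 44.0 elsewhere, and that of 10 pericyte markers 3265 to 8565 against at most 363. Markers of fibro-adipogenic progenitors, 11 in all, summed to 3913 to 6873 in fresh SMMC, 696 to 819 in MuSC and at most 285 in culture. Erythroid and macrophage markers summed to 303 to 882 and 109 to 522 in fresh SMMC. The sum of 10 vascular smooth muscle markers was 1259 to 1908 in fresh SMMC, 167 to 224 in MuSC, 880.0 to 1074 in proliferating and 2291 to 2535 in differentiating SMMC. Most of these 10 did not follow their sum. By the test given below, 8 were called lower and 1 higher in differentiating than in fresh SMMC, against 33.3% and 34.7% of all genes. The 5 cycling markers summed to 451 to 481 in proliferating SMMC and to 1.38 to 2.82 in fresh SMMC. In bulk RNA, fewer cells of a type and less RNA per cell cannot be told apart.

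SoxC proteins are known from progenitors, in which they act on survival and on genes of early neurons and mesenchyme. Sox9 is best known from cartilage, where it switches on matrix genes together with Sox5 and Sox6, and Sox6 represses slow fibre genes in skeletal muscle. Sox8 and Sox9 have been described in satellite cells, the stem cells of muscle. Sox7, Sox17 and Sox18 act in the endothelium of blood and lymph vessels.

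The SoxC subgroup holds the member with the highest bulk level, Sox11, and one that reached 1 FPKM in no library, Sox12. The 250 bases before the RefSeq start sites of its 3 genes (assembly GRCm38.p6) are therefore shown for comparison. Capitals mark the E-box CANNTG, the letters that basic helix-loop-helix proteins such as the myogenic factors recognise. The 3 windows lie on the minus strand and are written 5′ to 3′ along the gene, at chr13:28953700-28953949 for Sox4, chr12:27342719-27342968 for Sox11 and chr2:152398047-152398296 for Sox12.
Sox4: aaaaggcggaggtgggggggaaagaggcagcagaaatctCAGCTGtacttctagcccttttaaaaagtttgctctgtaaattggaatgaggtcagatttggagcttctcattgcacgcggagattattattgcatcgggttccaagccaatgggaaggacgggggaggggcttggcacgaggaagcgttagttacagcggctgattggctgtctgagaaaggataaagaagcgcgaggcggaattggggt
Sox11: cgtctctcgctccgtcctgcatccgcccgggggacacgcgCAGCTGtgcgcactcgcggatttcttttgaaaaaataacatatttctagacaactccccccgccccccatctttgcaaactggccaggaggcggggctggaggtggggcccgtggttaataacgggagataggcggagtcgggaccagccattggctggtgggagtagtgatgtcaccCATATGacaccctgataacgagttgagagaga
Sox12: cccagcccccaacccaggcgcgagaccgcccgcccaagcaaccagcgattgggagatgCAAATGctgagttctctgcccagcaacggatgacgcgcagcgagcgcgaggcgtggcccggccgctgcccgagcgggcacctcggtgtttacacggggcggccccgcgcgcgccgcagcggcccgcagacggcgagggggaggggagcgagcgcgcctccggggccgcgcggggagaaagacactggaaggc
The E-box, which reads the same on both strands, matched 1 time before Sox4, 2 times before Sox11 and 1 time before Sox12, and 66.2% of 32817 such windows of mouse genes hold it. The GC box GGGCGG, searched on both strands, matched 2 times before Sox11, 3 times before Sox12 and not before Sox4, against 32.7% of windows with a match. The Sox core ACAAT, on both strands, matched none of these 3 windows and 27.7% of all. The GC content was 50.8% before Sox4, 58.0% before Sox11 and 74.4% before Sox12. These matches describe letters and not binding. Upstream sequences were matched for 6 of the 10 genes.

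In bulk RNA the 10 Sox genes were dominated by Sox4, Sox9 and Sox11, and these were far higher in MuSC than in any SMMC library. The summed FPKM of all 10 was 1406 and 2539 in the MuSC libraries and lay between 63.7 and 114 in the 9 SMMC libraries. Sox4, Sox9 and Sox11 made up at least 99.6% of the sum in MuSC and 70.7% to 81.9% in fresh SMMC. SoxF genes took 6.07% to 11.2% of the sum in fresh SMMC and at most 0.297% in every other library.

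Differences were tested with limma on log2(FPKM + 1), with Benjamini-Hochberg adjustment over the 13233 genes that reached 1 FPKM in at least 2 libraries. A gene was called at an adjusted p under 0.05, and fold changes are on that scale, which understates changes of low genes. In fresh SMMC against MuSC, 59.7% of all genes tested were called, 41.7% higher and 18.0% lower. Of the 9 Sox genes tested, 6 were called higher and 3 lower; Sox12 reached 1 FPKM in no library and was not tested. Sox7, Sox17 and Sox18 reached 1 FPKM in fresh SMMC libraries alone, and Sox5 beyond them only in the MuSC library at 1.07 FPKM. Their passing the filter already favours a difference, and the count is no support for one. The median change was 0.99 over the 9 genes and 0.45 over all genes tested. After TMM rescaling and after quantile normalization the median of all genes was 0.04 and -0.04, and 51.2% and 48.1% of the calls were higher in place of 69.8%. Set against that shift, Sox4, Sox9 and Sox11 stayed called lower under both, Sox5 kept its call under TMM alone, and Sox6 and Sox8 lost theirs under both. Libraries of fresh SMMC and MuSC did not overlap, in either direction, for 73.3% of all genes tested. That share was 71% for proliferating against fresh SMMC and 51% for differentiating against proliferating SMMC. It was 71.4% for differentiating against fresh SMMC and 80% for proliferating SMMC against MuSC.

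**Figure D1:**
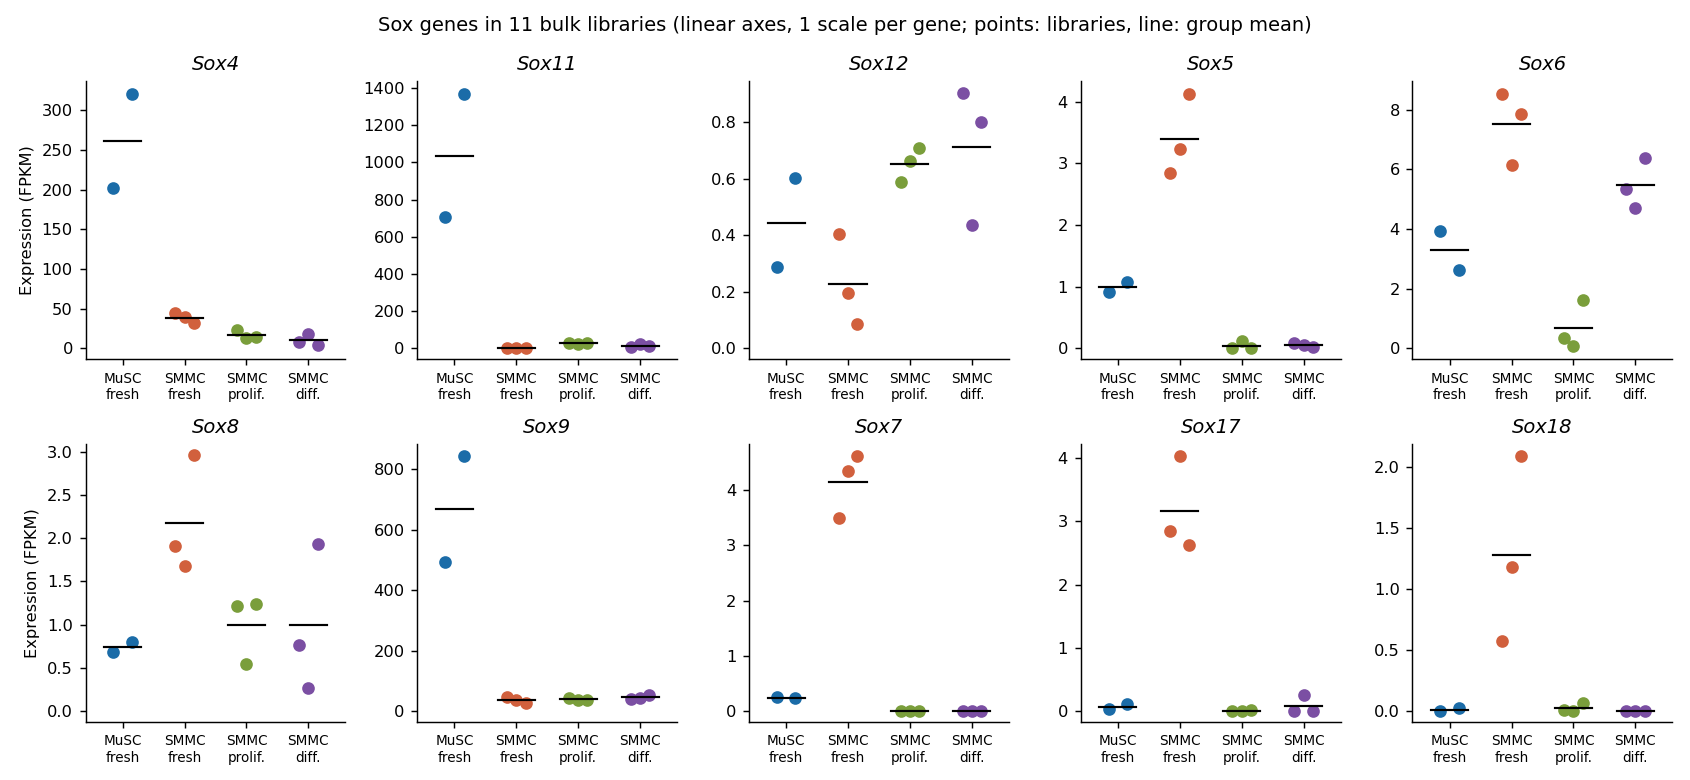
FPKM of each of the 10 Sox genes (vertical, linear axis with its own scale for each gene) in the 11 bulk libraries, by group. Points are libraries and lines are group means; Sox4, Sox9 and Sox11 stand highest in the 2 MuSC libraries, and Sox7, Sox17 and Sox18 in the 3 fresh SMMC libraries.

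Sox11 showed the widest range of the 10. It was 704 and 1370 FPKM in MuSC, 1.58, 2.22 and 1.29 FPKM in fresh SMMC, 29.7, 25.0 and 29.3 FPKM in proliferating SMMC, and 8.38, 21.6 and 13.5 FPKM in differentiating SMMC. The 4 groups did not overlap, and the order was MuSC, proliferating, differentiating, fresh SMMC. Sox11 was 368-fold lower in fresh SMMC than in MuSC (log2 change -8.52, SE 0.35, limma adjusted p = 5.86e-09). It rose 10.8-fold in culture (log2 change 3.44, SE 0.32, adjusted p = 1.21e-06) and was still 34.0-fold lower in proliferating SMMC than in MuSC (adjusted p = 9.43e-08). From proliferating to differentiating SMMC it fell by 0.99 on the log2 scale (SE 0.32, adjusted p = 0.0245). That last call was lost without proliferating replicate 1 (adjusted p = 0.0584) or 3 (0.0625), and without differentiating replicate 1 (0.113) or 3 (0.0515).

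Sox4 was 202 and 321 FPKM in MuSC, 45.1, 39.1 and 32.5 FPKM in fresh SMMC, 23.7, 13.4 and 14.6 FPKM in proliferating SMMC, and 7.83, 18.05 and 3.80 FPKM in differentiating SMMC. MuSC, fresh SMMC and the cultures were apart, while the ranges of the 2 kinds of culture overlapped. Sox4 was 6.47-fold lower in fresh SMMC than in MuSC (log2 change -2.69, SE 0.46, limma adjusted p = 2.77e-04), and 14.5-fold lower in proliferating SMMC than in MuSC (adjusted p = 8.99e-06). The fall of 2.24-fold from fresh to proliferating SMMC was called (log2 change -1.16, SE 0.41, adjusted p = 0.0237). It was not called without fresh replicate 1 (adjusted p = 0.0782) or 2 (0.0596), or without proliferating replicate 2 (0.0778) or 3 (0.0647). Differentiating against proliferating SMMC gave a log2 change of -0.92 (SE 0.41, adjusted p = 0.0921), which was called without differentiating replicate 2 (adjusted p = 0.00505).

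Sox12 was low throughout, from 0.0868 FPKM in a fresh SMMC library to 0.905 FPKM in a differentiating one. Its group means were 0.445 ± 0.222 (SD, n = 2) FPKM in MuSC, 0.229 ± 0.162 (SD, n = 3) in fresh SMMC, 0.653 ± 0.0599 (SD, n = 3) in proliferating and 0.714 ± 0.245 (SD, n = 3) in differentiating SMMC. In order of level, from differentiating through proliferating SMMC and MuSC to fresh SMMC, each group overlapped the next. The fresh SMMC libraries, at most 0.405 FPKM, lay below all libraries of cultured SMMC, of which the lowest was 0.438 FPKM.

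Sox4 and Sox11 each have 1 exon in the GENCODE M21 annotation of GRCm38 (Sox4 at chr13:28948919-28953713, Sox11 at chr12:27334264-27342574, both on the minus strand). Among 275 tested genes with 1 exon, the median log2 change in fresh SMMC against MuSC was 0.64 and 24.0% were lower, compared with a median of 0.45 and 34.7% for 10623 genes with 4 or more exons.

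Among 7 genes that SoxC factors act on in other tissues, 6 were tested. In fresh SMMC against MuSC, 3 were higher, 1 was lower and 2 were not called, compared with 41.7% of all genes higher and 18.0% lower. The actin regulators Marcksl1 (52.3 against 3.13 FPKM) and Dbn1 (19.0 against 3.05) and the microtubule regulator Stmn1 (12.2 against 5.79) were higher. Map2, a microtubule protein of neurons, was lower (7.93 against 57.1 FPKM). In proliferating against fresh SMMC, where 68.5% of all genes were called, 5 rose and 1, Map2, fell.

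Sox9, known from cartilage, was 493 and 843 FPKM in MuSC, 46.7, 35.6 and 25.0 FPKM in fresh SMMC, 44.0, 37.4 and 36.3 FPKM in proliferating SMMC, and 40.4, 42.8 and 52.6 FPKM in differentiating SMMC. Both MuSC libraries lay above all others, and the 3 SMMC groups overlapped in the order of their means. Sox9 was 18.1-fold lower in fresh SMMC than in MuSC (log2 change -4.18, SE 0.28, limma adjusted p = 1.64e-07) and 16.1-fold lower in proliferating SMMC (adjusted p = 1.03e-07). The change in culture was 0.17 on the log2 scale (SE 0.25, adjusted p = 0.568), and from proliferating to differentiating SMMC 0.20 (SE 0.25, adjusted p = 0.584). Neither passed the test.

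Sox8, the other SoxE gene here, was 0.678 and 0.802 FPKM in MuSC, 1.91, 1.67 and 2.96 FPKM in fresh SMMC, 1.21, 0.540 and 1.24 FPKM in proliferating SMMC, and 0.767, 0.267 and 1.93 FPKM in differentiating SMMC. Fresh SMMC lay above MuSC and proliferating SMMC without overlap, and 73.3% and 71% of all genes tested did not overlap there, in either direction. It was called higher in fresh SMMC than in MuSC (1.80-fold, log2 change 0.85, SE 0.32, limma adjusted p = 0.0390), a call lost without MuSC replicate 1 or 2 or fresh SMMC replicate 1 or 3 (adjusted p from 0.0547 to 0.155). The change from fresh to proliferating SMMC missed the threshold (log2 change -0.67, SE 0.29, adjusted p = 0.0572), which it passed without differentiating replicate 2 or 3 (0.0328 and 0.0217). Differentiating SMMC were called lower than fresh SMMC although the libraries overlapped (log2 change -0.74, SE 0.29, adjusted p = 0.0380). That call was lost without MuSC replicate 1 or 2, fresh SMMC replicate 1 or 3, or differentiating replicate 1 or 2 (adjusted p from 0.0538 to 0.170).

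Sox5, a SoxD protein without a known activation domain, was 0.911 and 1.07 FPKM in MuSC and 2.84, 3.24 and 4.13 FPKM in fresh SMMC. It was listed at 0, 0.112 and 0 FPKM in proliferating SMMC and at 0.0851, 0.0503 and 0.0203 FPKM in differentiating SMMC. Fresh SMMC were highest and the cultures lowest, with no overlap between fresh and cultured cells. The difference from MuSC was 1.13 on the log2 scale (SE 0.18), and Sox5 fell by 2.08 from fresh to proliferating SMMC (SE 0.16). Outside fresh SMMC only the MuSC library at 1.07 FPKM reached 1 FPKM. Sox5 thus passed the filter only through fresh SMMC, the group in which it is high, and no p-value is given for these differences.

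Sox6, its partner in the SoxD subgroup, had another course. It was 3.93 and 2.64 FPKM in MuSC, 8.53, 6.13 and 7.84 FPKM in fresh SMMC, 0.352, 0.0731 and 1.64 FPKM in proliferating SMMC, and 5.33, 4.71 and 6.37 FPKM in differentiating SMMC. Proliferating SMMC lay below every other library, and differentiating SMMC overlapped fresh SMMC. From fresh to proliferating SMMC it fell by 2.43 on the log2 scale (SE 0.31, limma adjusted p = 1.73e-05). In differentiating against proliferating SMMC, a comparison in which 40.5% of all genes were called (20.9% higher and 19.6% lower), Sox6 rose 4.12-fold (log2 change 2.04, SE 0.31, adjusted p = 2.28e-04). It was the 1 Sox gene of the 9 that rose there, Sox11 was the 1 that fell, and 7 were not called. Its level in fresh SMMC was called higher than in MuSC (log2 change 0.99, SE 0.34, adjusted p = 0.0246), which was lost without MuSC replicate 2 (adjusted p = 0.178) or without fresh replicate 1 (0.0665) or 3 (0.0572).

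In skeletal muscle Sox6 represses genes of slow fibres. Of 8 slow fibre genes tested, 7 rose and 1 fell from proliferating to differentiating SMMC, with a median log2 change of 2.33. All 9 fast fibre genes tested rose, with a median of 3.69. The median of all genes was 0.00, and 20.9% of them were called higher and 19.6% lower. In fresh SMMC against MuSC 2 slow fibre genes were higher and 1 lower of 8, compared with 41.7% and 18.0% of all genes. The troponin subunits Tnni1 (3.78 against 0.133 FPKM) and Tnnc1 (1.01 against 0.139) were higher and the tropomyosin Tpm3 (321 against 570) was lower. Fast fibre genes gave 2 higher and 1 lower of 9, with Tnnc2 (10.3 against 2.34 FPKM) and Myh2 (1.04 against 0.190) higher and Actn3 (27.5 against 98.9) lower. Sums of 8 fibre markers were 621 to 1609 FPKM in proliferating and 13626 to 17442 FPKM in differentiating SMMC; their part in the rise of Sox6 was not tested.

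Of 12 cartilage matrix genes in the table on which Sox9, Sox5 and Sox6 act in chondrocytes, 8 were tested. In fresh SMMC against MuSC 7 were higher and 1 was not called, with a median log2 change of 2.56, although Sox9 itself was lower. Over all genes tested, 41.7% were called higher and 18.0% lower. The matrix protein Comp was at 326 against 0.410 FPKM, the collagen gene Col11a1 at 48.6 against 0.272, and Col2a1 at 8.31 against 0.00689. All 8 were lower in proliferating than in fresh SMMC, compared with 35.4% of all genes. Comp, Col11a1 and Col2a1 had means under 1 FPKM in MuSC, so their passing the filter may already favour a difference. Tenocyte markers, which include Comp and Col11a1, moved the same way, as given above. The lists thus share genes, and the part of tenocyte RNA in these values was not tested.

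**Figure D2:**
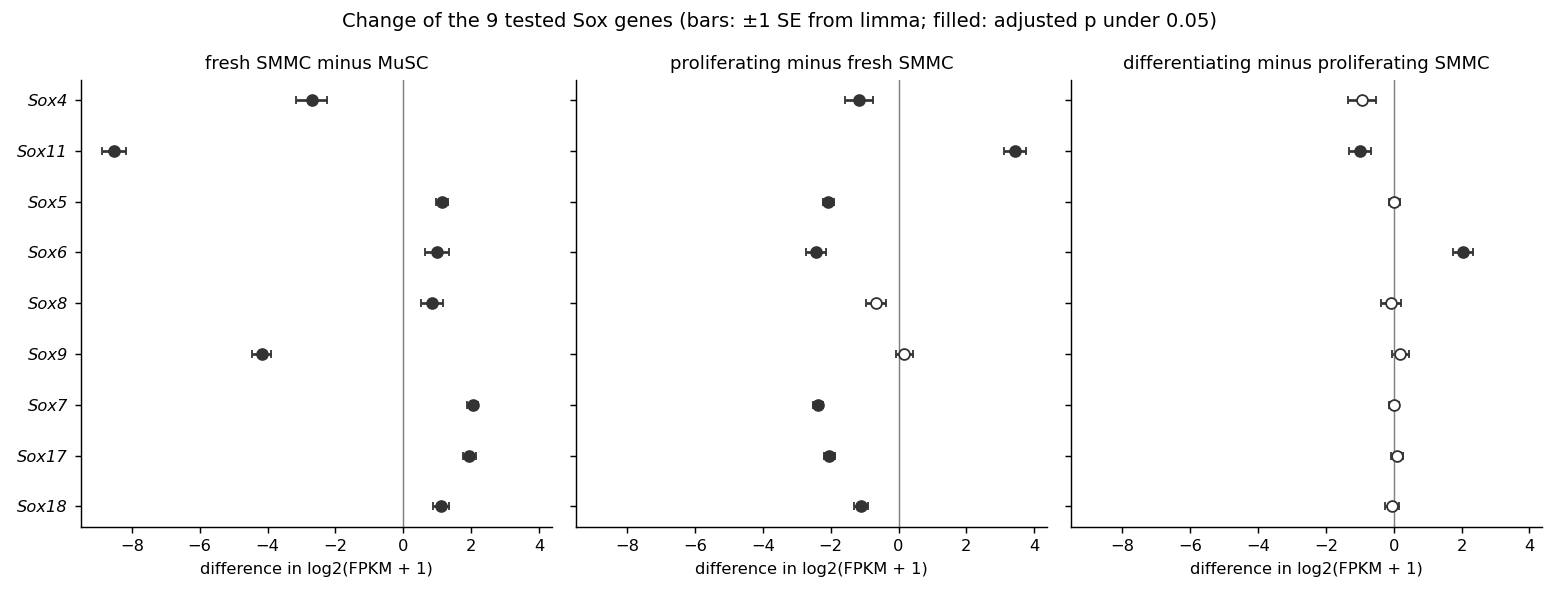
Difference in log2(FPKM + 1) (horizontal) for the 9 tested Sox genes (vertical) in 3 comparisons; bars are ±1 SE from limma and filled points have an adjusted p under 0.05. Sox11 is lowest in the left panel at -8.52 and highest in the middle panel at 3.44, and Sox6 alone is called higher in the right panel.

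The SoxF genes were seen in bulk almost only in fresh SMMC. Sox7 was 0.257 and 0.232 FPKM in MuSC and 3.501, 4.35 and 4.61 FPKM in fresh SMMC, and it was listed at 0 in all 6 libraries of cultured SMMC. Sox17 was 0.0290 and 0.108 FPKM in MuSC and 2.84, 4.03 and 2.63 FPKM in fresh SMMC; of the cultured libraries 4 were listed at 0 and the others at 0.0191 and 0.261 FPKM. Sox18 was listed at 0 and 0.0243 FPKM in MuSC, stood at 0.569, 1.18 and 2.08 FPKM in fresh SMMC and was at most 0.0680 FPKM in culture. In each case the 3 fresh SMMC libraries lay above the other 8. The differences from MuSC in log2(FPKM + 1) were 2.04 (SE 0.17) for Sox7, 1.95 (SE 0.19) for Sox17 and 1.12 (SE 0.23) for Sox18, and they depend on the pseudocount. The differences of proliferating from fresh SMMC were -2.36, -2.04 and -1.10 on the same scale. All 3 genes entered the test only through fresh SMMC, the group in which they are high, so no p-value is given for them.

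Both sorts excluded cells with CD31, the endothelial surface protein encoded by Pecam1. The summed FPKM of 11 endothelial markers was nevertheless 310 to 564 in fresh SMMC, with no marker at 0 in all 3 libraries. The sum was 9.18 to 11.1 FPKM in MuSC, 5.47 to 8.08 in proliferating SMMC with 2 markers at 0 throughout, and 11.9 to 23.6 in differentiating SMMC. The part of endothelial RNA in the SoxF values of fresh SMMC was not tested. Of 16 endothelial genes around the SoxF factors, 14 were tested. Cdh5, Cldn5, Pecam1, Kdr, Flt1, Tie1 and Esam are in this list and also among the 11 markers. In fresh SMMC against MuSC 9 of the 14 were higher, 3 lower and 2 not called. Over all genes tested, 41.7% were called higher and 18.0% lower. The tight junction gene Cldn5 (28.5 against 0.451 FPKM), the connexin gene Gja4 (33.1 against 0.418) and the adhesion molecule Esam (100.4 against 1.56) were higher. The transcription factor Ets1 (32.1 against 362 FPKM), the angiopoietin receptor Tek (2.73 against 27.0) and the ephrin Efnb2 (2.16 against 11.1) were lower. From fresh to proliferating SMMC 12 of the 14 fell and 1 rose, compared with 35.4% and 33.1% of all genes. Cldn5 and Gja4 had means under 1 FPKM in MuSC, and the 11 markers summed to at most 8.08 FPKM in proliferating SMMC. Genes of this list may thus have passed the filter mainly through fresh SMMC. Neither the 9 of 14 nor the 12 of 14 is therefore support for a difference.

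From fresh to proliferating SMMC, where 33.1% of all genes were called higher and 35.4% lower, 1 of the 9 tested Sox genes, Sox11, was called higher and 6 lower. Of those 6, Sox5, Sox7, Sox17 and Sox18 had entered the test only through fresh SMMC, here and in differentiating against fresh SMMC, so neither count is support for a fall. Differentiating against fresh SMMC gave 1 higher and 6 lower, against 34.7% and 33.3% of all genes (68.0% in either direction). Sox11 was 5.44-fold higher there (limma adjusted p = 2.55e-05), Sox4 fell by 2.09 on the log2 scale (adjusted p = 6.71e-04), and Sox6 and Sox9 were not called (adjusted p = 0.276 and 0.216). In proliferating SMMC against MuSC, with 42.7% of all genes called higher and 25.7% lower (68.3% in all), no Sox gene was called higher and 5 were called lower: Sox4, Sox11, Sox5, Sox6 and Sox9. These comparisons share their control libraries, so their counts are not independent.

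In the single-cell libraries 12385 cells remained after removal of called doublets. They fell into 27 clusters, of which 18 were named from fixed marker genes and formed 15 classes. The 10 Sox genes were left out of the genes used for clustering. Levels are UMI counts of a class scaled to 1e6 in all (CPM), summed over both libraries, with exact Poisson intervals that cover counting error only. Both libraries belong to 1 condition, so the values are a description and carry no test.

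**Figure D3:**
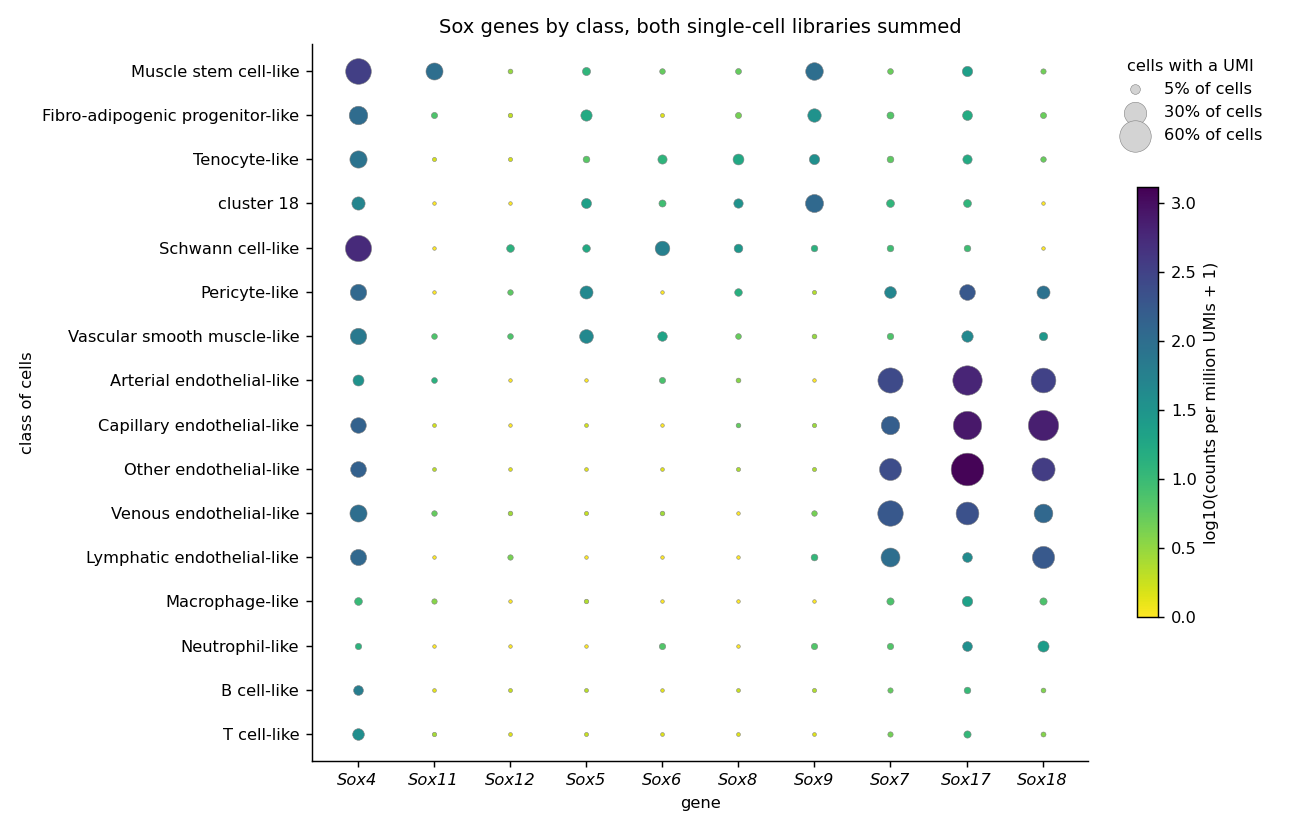
Level of the 10 Sox genes (horizontal) in 15 named classes and the unnamed cluster 18 (vertical), both libraries summed. Dot area grows with the percent of cells with a UMI and colour stands for log10(CPM + 1). Sox7, Sox17 and Sox18 are dark in the endothelial classes, and Sox4, Sox9 and Sox11 in muscle stem cell-like cells. Sox4 is dark also in Schwann cell-like cells, and Sox9 in cluster 18.

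Of the 361 UMIs of Sox11, 78.7% lay in the class of 960 muscle stem cell-like cells. Its level there was 98.1 CPM (95% interval 87.0 to 110), 89.0 CPM in library 1 and 106 CPM in library 2. The next class, arterial endothelial-like, had 12.2 CPM (5.57 to 23.1). A Sox11 UMI was found in 17.0% of muscle stem cell-like cells (median 2817 UMIs per cell) and in 0.418% of T cell-like cells (median 2463). With each cell thinned to 1000 UMIs the shares were 6.46% and 0.314%.

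Sox9 reached 100.5 CPM (89.3 to 113) in muscle stem cell-like cells, with 144 UMIs in library 1 and 147 in library 2, and 39.7% of its 733 UMIs lay there. It was lower in tenocyte-like cells at 36.2 CPM (30.1 to 43.1) and in fibro-adipogenic progenitor-like cells, mesenchymal cells between the fibres, at 33.3 CPM (29.2 to 37.9), with no overlap of these intervals with that of muscle stem cell-like cells. Within the latter class, cluster 8 had 43.0 CPM and cluster 7 had 12.7 CPM. The unnamed cluster 18, described below, had 113 CPM with a Sox9 UMI in 19.1% of cells, compared with 18.1% of muscle stem cell-like cells. B cell-like cells had 1.34 CPM (0.579 to 2.64).

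Sox4 was spread more widely. The highest named class was Schwann cell-like with 558 CPM (469 to 660), which held 396 CPM in library 1 and 635 CPM in library 2. Muscle stem cell-like cells followed with 341 CPM (320 to 363), 263 CPM and 410 CPM in the libraries, whose intervals did not overlap. The non-lymphatic and lymphatic endothelial classes ranged from 32.5 CPM in arterial-like to 145 CPM in other endothelial-like cells, and macrophage-like cells had 9.22 CPM. Of muscle stem cell-like cells, 58.1% held a UMI of at least 1 of Sox4, Sox9 and Sox11 and 1.35% held a UMI of all 3. Sox12 gave 38 UMIs in all, 3 of them in the Schwann cell-like class at its highest level of 12.2 CPM (2.52 to 35.7), so no order of classes can be read for it.

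**Figure D4:**
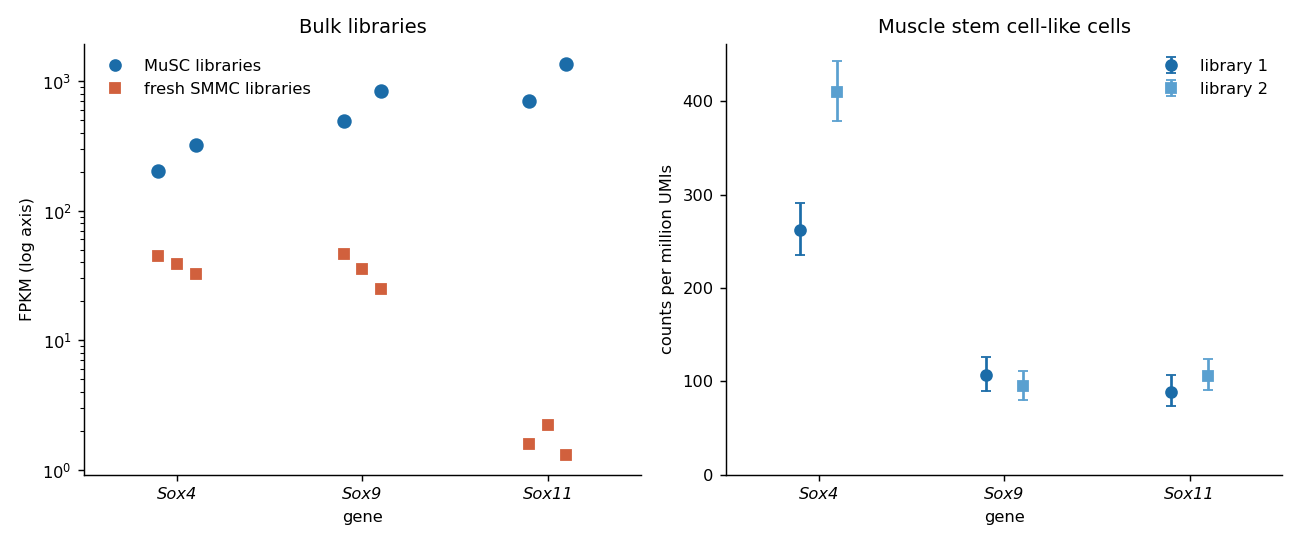
Sox4, Sox9 and Sox11 in the bulk MuSC and fresh SMMC libraries (left, FPKM on a log axis, 1 point per library) and in muscle stem cell-like single cells of each library (right, CPM with exact 95% Poisson intervals). In MuSC, Sox11 lies highest in FPKM at 704 and 1370, while in single cells Sox4 has 263 and 410 CPM and Sox11 89.0 and 106 CPM.

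The plot of these 3 genes sets the assays side by side. Per length, in FPKM, the order in both MuSC libraries was Sox11, Sox9, Sox4. The UMI counts of 3′ ends are not divided by length, and there Sox4 had 341 CPM, Sox9 100.5 and Sox11 98.1. The scales differ, so no comparison across them was made.

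Summed over both libraries, Sox5 was highest in mural cells, the cells that wrap small vessels. It had 45.3 CPM (31.5 to 63.0) in pericyte-like and 44.4 CPM (27.5 to 67.9) in vascular smooth muscle-like cells, which did not differ beyond counting error. Fibro-adipogenic progenitor-like cells had 15.7 CPM (12.9 to 19.0). In Schwann cell-like cells library 1 held 4 UMIs, at 51.1 CPM the highest level of the named classes in that library. Library 2 held 0 in 75 cells. That 0 allows a share of cells with a UMI of up to 4.0% and does not limit the share of cells that express the gene. Sox6 gave 96 UMIs in all and was highest in Schwann cell-like cells at 57.1 CPM (31.2 to 95.8, from 14 UMIs). Vascular smooth muscle-like cells had 19.0 CPM (8.70 to 36.1), an interval that overlapped that of Schwann cell-like cells. Tenocyte-like cells had 11.3 CPM (8.03 to 15.4). Sox8 gave 147 UMIs, of which 57 lay in tenocyte-like cells at 16.5 CPM (12.50 to 21.39). Its level in Schwann cell-like cells, 28.5 CPM (11.5 to 58.8), rests on 7 UMIs, 5 of them in library 1, and the intervals of both classes overlapped.

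The SoxF genes were endothelial in single cells. The 5 endothelial classes, with 3252 cells, held 88.0% of the 1510 Sox7 UMIs, 89.4% of the 5863 Sox17 UMIs and 92.7% of the 2700 Sox18 UMIs. In these cells 77.2% held a UMI of at least 1 SoxF gene, 35.2% of at least 2 and 6.73% of all 3. B cell-like cells had 4.53, 9.39 and 3.02 CPM of Sox7, Sox17 and Sox18.

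The 3 genes were not spread alike over the vessel classes. Sox18 was highest in capillary endothelial-like cells at 711 CPM (669 to 754). It had 364 CPM in other endothelial-like, 317 CPM in arterial-like, 118 CPM in venous-like and 179 CPM in lymphatic-like cells. Sox17 reached 1213 CPM (1172 to 1255) in other endothelial-like cells, 807 CPM in capillary-like, 621 CPM in arterial-like, 218 CPM in venous-like and 40.6 CPM (20.99 to 71.0, from 12 UMIs) in lymphatic-like cells. Sox7 varied least, from 259 CPM (223 to 298) in arterial-like to 98.2 CPM (65.7 to 141) in lymphatic-like cells, with 242 CPM in other endothelial-like, 185 CPM in venous-like and 157 CPM in capillary-like cells. The class called other endothelial-like was led by Cldn5 together with the interferon response genes Iigp1, Ifit1, Isg15 and Rsad2. It was unevenly drawn, with 555 and 1028 cells from libraries 1 and 2, as was the capillary-like class with 611 and 274.

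After thinning to 1000 UMIs per cell, a Sox17 UMI was found in 54.9% of other endothelial-like, 41.6% of capillary-like, 33.8% of arterial-like, 16.4% of venous-like and 1.06% of lymphatic-like cells, compared with 1.01% of B cell-like cells. Without thinning these shares were 64.6%, 48.5%, 52.2%, 31.1%, 5.05% and 1.91%. The thinned lymphatic share is 1 cell of 94, too few to set beside that of B cell-like cells. For Sox18 the thinned shares were 44.7% in capillary-like, 10.6% in lymphatic-like and 0.350% in B cell-like cells, and without thinning 55.4%, 29.3% and 0.625%.

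Sox18 differed between the libraries. In capillary endothelial-like cells it had 784 CPM in library 1 and 500.3 CPM in library 2, and over all endothelial classes 52.3% and 25.8% of cells held a UMI. Library 1 was deeper, with a median of 2516 UMIs per cell against 2027. Sox7 and Sox17 shares were 27.0% and 29.2%, and 58.8% and 49.1%. The cause of the difference was not tested.

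**Figure D5:**
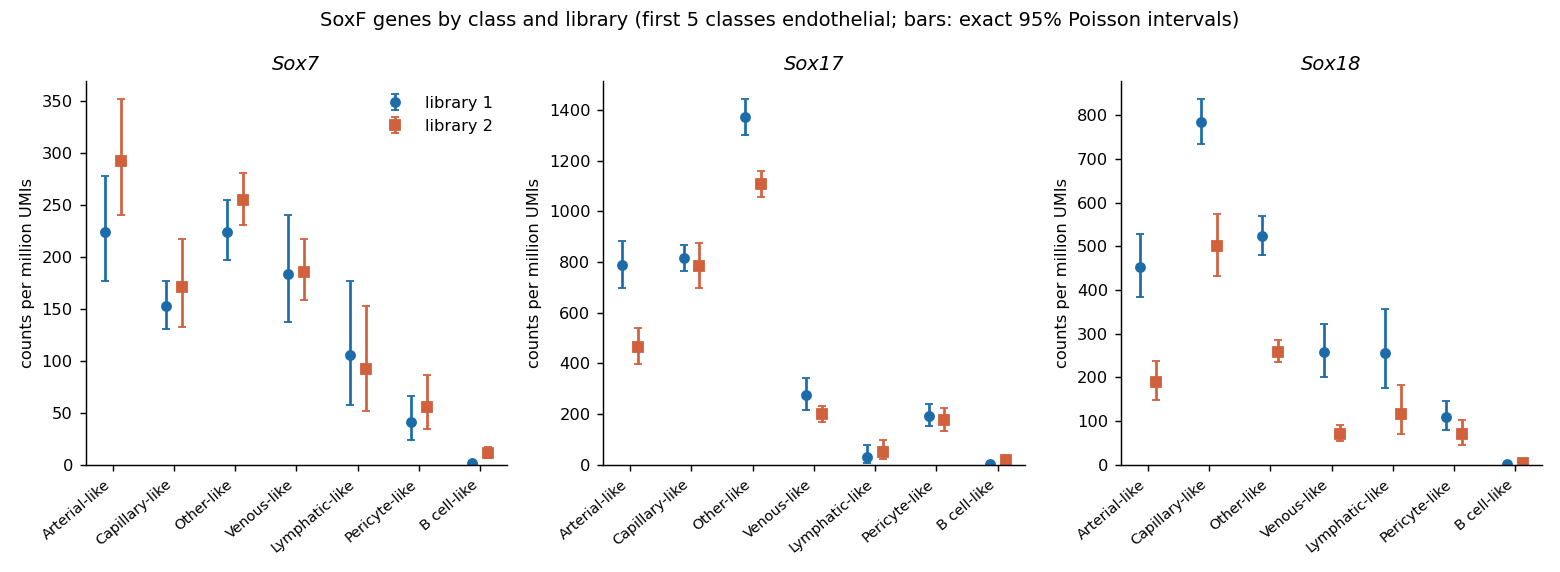
CPM (vertical, linear axes) of Sox7, Sox17 and Sox18 in 5 endothelial classes, pericyte-like and B cell-like cells (horizontal), by library; bars are exact 95% Poisson intervals. Sox18 peaks in capillary-like cells at 784 and 500.3 CPM, Sox17 in other endothelial-like cells, and library 1 lies above library 2 for Sox18 in every class shown but B cell-like.

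Pericyte-like cells also held SoxF UMIs, at 47.9 CPM of Sox7, 185 CPM of Sox17 and 90.6 CPM of Sox18. Their 11 endothelial markers summed to 6519 CPM, against 328 CPM in B cell-like and 30448 CPM in capillary-like cells. Per 1000 UMIs of those markers, pericyte-like cells had 7.34 Sox7, 28.4 Sox17 and 13.9 Sox18 UMIs, and the endothelial classes 9.36, 36.9 and 17.6. All 3 ratios were lower in pericyte-like cells. Scrublet called 0.846% of cells as doublets in library 1 and 0.0635% in library 2, under the rate at which a caller can be taken to have worked, so doublets remain possible in these values.

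Genes with the most similar pattern were taken from both data sets as a description; the libraries share their depth and preparation. Over 11 bulk libraries the highest Pearson correlations were with Arf6 (0.99) for Sox4, Rps25 (0.99) for Sox11, Rap2b (0.99) for Sox9, Apold1 (0.996) for Sox5 and Lin52 (0.87) for Sox8. For Sox7, Sox17 and Sox18 they were C1s1 (0.999), Tac1 (0.99) and Rasgrp2 (0.99). Over 20 cell classes, the genes most like Sox17 were Apol10b (0.97 and 0.98 in libraries 1 and 2), Adcy4 and Flt1. Those most like Sox18 were Egfl7 (0.96 and 0.97), Gpihbp1 and Ushbp1, those most like Sox7 were Rasip1 (0.98 in both), Eva1a and Mmrn2, those most like Sox4 were Dag1 (0.78 and 0.88), Cfl2 and Jam3, and those most like Sox9 were Nppc (0.81 and 0.85), Fgfr1 and Clmp.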

How the data were processed

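Bulk values are FPKM per gene as deposited by the authors; single-cell values are UMI counts per gene and cell as deposited by the authors, with at least 499 genes per cell. Per the submitters' processing notes, the build was mm10. The tools they list without roles are R (3.3.1, 3.4.3, 3.5.1), Seurat (2.3.4, 2.2), Cell Ranger (2.2.0, 2.1.0), STAR 2.5.1b, StringTie, SAMtools 1.3.1 and HISAT2 2.1.0. Annotation and strand setting are not given in the sources used here. Sox4, Sox5, Sox6, Sox8 and Sox17 overlap other genes in GENCODE M21 and could share reads with them. The table also held 4 FPKM columns of no sample, which were not used. No step worth 1 read was found: of 1817 genes under 0.3 FPKM in both of the first 2 fresh SMMC libraries, the most common 0.01-log2 ratio bin held 0.826%.

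The members and gene lists were chosen with earlier results of these data known. Bulk tests used limma 3.58.1 (lmFit, eBayes with trend, two-sided) in R 4.3.3 on log2(FPKM + 1), all 11 libraries in 1 fit with 7 residual degrees of freedom; it was tested on simulated data. Genes named from each list were those called against the list's prevailing direction in fresh SMMC against MuSC, plus up to 3 called in that direction, ranked by adjusted p.

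The filter on cells (200 genes or more, no more than 20% mitochondrial counts) removed 0, and doublets called by Scrublet were dropped. Clustering used scanpy 1.11.5 with 1994 variable genes, none of them a member, 30 components, 15 neighbours and Leiden resolution 1.0. A class needed 50 cells, 3 raised markers and 1 of them in its top 10 genes. Thinning to 1000 UMIs left out 513 cells. Intervals are exact at 95% and, like limits for a count of 0, cover counting error only. The bulk gene most like Sox6 is not reported here.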

Additional observations from a re-analysis of the deposited data

How the results depend on the processing

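Over the alternatives tried (other pseudocounts, filters, scalings, fits and left-out libraries), none of 45 member results in bulk reversed a call. Of 30 called, 24 kept their call in each alternative in which the gene was tested and 6 lost it at least once. The 24 include all calls of Sox7, Sox17 and Sox18 and all but 1 of Sox5. These genes passed the filter only through fresh SMMC, so the count is no support for their differences from it. Each comparison had 21 alternatives for Sox4, Sox9 and Sox11, 20 for Sox5, Sox6, Sox7, Sox8 and Sox17, which were not tested under the filter of 10 FPKM, and 18 for Sox18, which also failed the main filter without fresh SMMC replicate 2 or 3. The calls lost were those of Sox4 and Sox11 in 1 comparison each, of Sox5 in 1 (quantile normalization), Sox6 in 1 and Sox8 in 2. Among the results not called, 3 were called at least once, 1 each of Sox4, Sox7 and Sox8. Under a filter of 10 FPKM in 2 libraries, which tests 7892 genes, 5233 genes were called in fresh SMMC against MuSC (7906 otherwise), 6030 in proliferating against fresh (9061) and 5911 in differentiating against fresh (8992). In proliferating SMMC against MuSC 49.3% of calls were higher after TMM rescaling, compared with 62.4%.

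The replicate numbers did not pair the libraries: correlations of deviations ran from -0.128 to 0.142. With the number as a replicate block, 7642, 9039 and 5293 genes were called in the first 3 comparisons (7906, 9061 and 5360 without), and the adjusted p of Sox8 in proliferating against fresh SMMC was 0.0186.

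The class with the highest level was the same for 5 to 9 of the 10 genes when 1 single-cell library was left out. In library 1 alone the Schwann cell-like class held 30 cells, under the minimum of 50, and was left out by that rule. Of the named classes its levels of Sox4, Sox5, Sox6, Sox8 and Sox12 were still the highest there. In library 2 alone Sox8 was highest in tenocyte-like cells. Bulk depth is unknown; Sox6, Sox8 and Sox12 gave under 150 UMIs each.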

Other observations

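Other Sox genes were measured beside the 10. Sox10, a SoxE factor of glia, was 23.4, 17.7 and 20.01 FPKM in fresh SMMC and at most 0.0426 FPKM in MuSC (log2 change 4.38, SE 0.23). It fell to 0.376 to 0.996 FPKM in proliferating SMMC. The summed FPKM of 11 Schwann cell markers, Sox10 among them, was 792 to 1168 in fresh SMMC against 173 to 191 in MuSC. The part of Schwann cell RNA in the Sox10 values was not tested. Sox13, a SoxD factor, was 16.4, 20.9 and 33.6 FPKM in fresh SMMC against 0.246 and 1.56 FPKM in MuSC (log2 change 3.72, SE 0.49). Of fresh SMMC and MuSC, only fresh SMMC met the filter of 1 FPKM in 2 libraries for Sox10 and Sox13. Their passing it may thus already favour a difference, and no p-value is given for them. Sox2 lay between 0.528 and 0.866 FPKM in fresh SMMC and Sox15 at or below 0.314 FPKM everywhere. Sox1, Sox3, Sox21 and Sox30 had no library above 0.0604 FPKM, and Sox14 was listed at 0 throughout.

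Within the B cell-like class, Sox4 differed between clusters. Cluster 12, led by Vpreb3, a gene of immature B cells, with the cycling gene Top2a among its top genes, had 288 CPM and a Sox4 UMI in 16.0% of 443 cells. Clusters 10 and 13 had 8.66 and 52.9 CPM. The unnamed cluster 18, 131 cells led by Sfrp5, had 113 CPM of Sox9 (81.8 to 153) and 74.2 and 139.8 CPM in libraries 1 and 2. Sox8 in that cluster gave 12 UMIs in library 1 and none in the 84 cells of library 2, where a count of 0 allows a share of cells with a UMI, not of cells expressing the gene, of up to 3.57%.

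Further partner lists in fresh SMMC against MuSC gave mixed counts, in a comparison with 41.7% of all genes called higher and 18.0% lower. Of 8 TCF and beta-catenin genes, 4 were higher (Nkd1 at 48.9 FPKM and listed at 0 in MuSC, Axin2 at 7.58 against 0.462, and Ctnnb1 at 98.5 against 41.7 among them), and Tcf7l2 (11.5 against 137 FPKM) and Tcf7l1 (5.78 against 14.2) were lower. Of 4 SoxE partner genes tested, Mitf was higher (1.14 against 0.453) and Pax3 lower (0.435 against 3.20). Of 3 POU genes tested, Pou3f1 (3.12 against 0.890) and Pou6f1 (5.76 against 2.09) were higher.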
